A study of Homo sapiens with 6 samples.

Results

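The annexin genes ANXA1, ANXA2, ANXA3, ANXA4, ANXA5, ANXA6, ANXA7, ANXA8, ANXA10 and ANXA11 were followed in 2 human cell lines on Illumina expression arrays. A probe belonged to the family when the platform annotation gave it one of these 10 symbols, which held for 19 of 47231 probes. A probe was measured when its detection value, read as 1 minus the detection p, was above 0.99 on all 3 arrays of at least 1 line. That left 14 annexin probes among 19384 measured probes, and all 10 genes kept at least 1 probe, among 11515 measured genes. The lines were C28, chondrocytes that serve as the control, and JJ012, a chondrosarcoma line, with 3 arrays each and no treatment named for either. Total RNA came from dishes seeded with 5000000 cells and kept in culture for 24 h. Each group is 1 line, so the sarcoma origin and any other difference between the lines cannot be told apart. No label names separate cultures behind the arrays of a line, so p-values measure array-to-array spread that may be technical only.

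Annexins are cytosolic proteins that bind negatively charged phospholipids, mostly phosphatidylserine, when calcium rises. They share a conserved core of repeats that carries the calcium sites, and they differ in a short tail at the amino end that binds partners such as the EF-hand proteins of the S100 family. They are known for membrane repair, vesicle traffic, plasmin formation at the cell surface and the control of inflammation. In cartilage, annexins of matrix vesicles are known for a part in calcium uptake during mineralization.

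The arrays detected 17826 to 19332 probes each. Across the 15285 probes that every array detected, C28 arrays correlated with one another at 0.994 to 0.996 and JJ012 arrays at 0.986 to 0.992, while pairs from different lines had 0.891 to 0.907. The JJ012 arrays stood apart from one another in how much signal they carried at probes bright in C28. Over 93 such probes that JJ012 replicate 2 did not detect, annexins left out, the median signal on JJ012 replicate 1 was 8.94% of that in C28, 7.57% to 10.7% from the 10th to the 90th percentile, and all 93 were detected. On JJ012 replicate 3 it was 2.30% (1.5% to 3.63%), and on JJ012 replicate 2, which was off by the choice of probes, 0.685%. The term C28 share below refers to this signal at C28-bright probes. Where the signal came from was not tested. In the other direction, the C28 arrays read medians of 0.718% to 0.886% of the JJ012 mean over 31 probes bright in JJ012 and off in C28. Those probes were chosen to be off on every C28 array, so low values were set in advance. They cannot show whether the C28 arrays carry JJ012 signal. Of 9 chondrocyte markers only SOX9 and MATN3 were measured, and ACAN, COL9A1, COMP, HAPLN1 and CNMD were not detected on any array. A probe of COL2A1 was detected on 1 C28 array and no JJ012 array. A probe of COL11A1 was detected on 2 JJ012 arrays and no C28 array.

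Of the 10 annexin genes, ANXA10 and ANXA1 were higher in JJ012, and ANXA3, ANXA8 and ANXA4 were lower. ANXA2, ANXA5, ANXA6, ANXA7 and ANXA11 differed by less than 2-fold. A gene was read from its brightest measured probe and called at an adjusted p under 0.05 (limma, Benjamini-Hochberg over all measured probes) with a difference of at least 2-fold. The 5 calls among 10 annexins stand beside 31.2% called among all 11515 genes, with 13.7% called higher and 17.6% called lower. Nothing particular to the family is read from these counts. By probe, 5 of 14 were called, beside 29.8% of all measured probes. With no minimum fold, 12 annexin probes had an adjusted p under 0.05, beside 70.2% of all, and 9 annexin genes, beside 71.9%. The normalized values of the lines did not overlap for any of the 10 genes or 14 probes, which was also the case for 76.2% of all genes and 74.2% of all probes. For ANXA2 they nearly met, with the lowest C28 array at 14.535 and the highest JJ012 array at 14.531. The median difference, JJ012 minus C28 on the log2 scale, was -0.36 over the 10 annexins and -0.04 over all genes. The calls were the same 2 higher and 3 lower genes when JJ012 replicate 1 was left out, and when JJ012 replicate 2 was the lone JJ012 array. In the latter fit the spread came from the C28 arrays alone, so the lone array is assumed to vary like them.

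**Figure D1:**
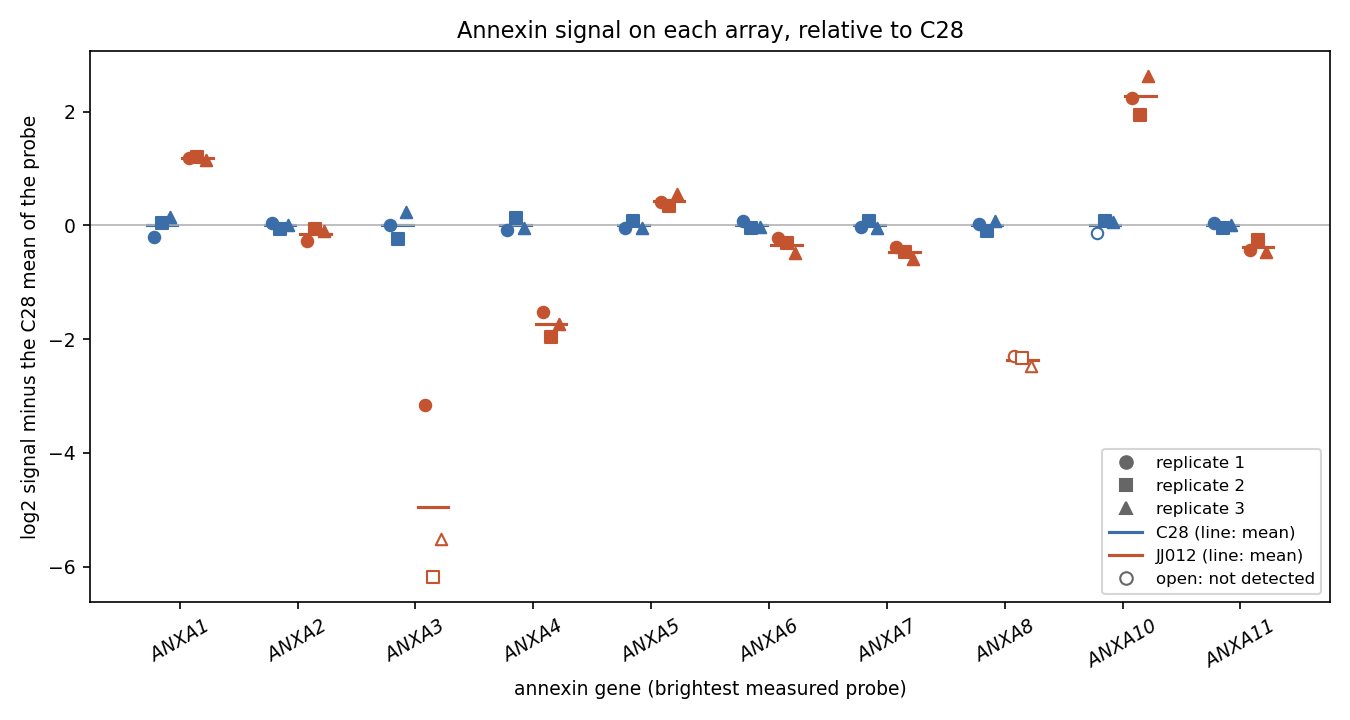
Log2 signal of the brightest measured probe of each annexin gene on each of the 6 arrays, minus the C28 mean of that probe, with a line at the mean of each cell line and open points where an array did not detect the probe. ANXA10 and ANXA1 sit above the C28 arrays, ANXA3, ANXA8 and ANXA4 sit well below them, and ANXA3 shows a wide gap between JJ012 replicate 1 and the other JJ012 arrays.

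ANXA10 had the largest rise of the family. It encodes an annexin that has lost most of the calcium sites of its relatives and is known from stomach tissue. Its single probe read intensities of 116.6, 111 and 116.6 on C28 replicates 1, 2 and 3 and of 256.3, 206.8 and 340.9 on the JJ012 arrays. All JJ012 arrays lay above all C28 arrays, and C28 was at the edge of detection, with 2 of 3 arrays above it. After normalization the C28 mean was 5.55 ± 0.12 and the JJ012 mean 7.82 ± 0.35 (log2, SD, n = 3 each), a difference of 2.27 (SE 0.17, limma adjusted p = 1.07e-05). Because the C28 signal is close to background, the size depends on how background is handled. It was 1.29 with no background correction and 1.41 with the authors' normalized values.

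ANXA1 encodes the annexin that glucocorticoids induce in many cells and whose tail peptide acts on formyl peptide receptors to limit inflammation. Its single probe read 5267.6, 4845.6 and 5660.8 in C28 and 10429.8, 10091.2 and 10788.2 in JJ012. The JJ012 arrays were close to one another, and each was above every C28 array. The normalized means were 12.23 ± 0.18 and 13.41 ± 0.02 (log2, SD, n = 3 each), a difference of 1.18 (SE 0.11, limma adjusted p = 3.64e-05). The 95% interval of this difference ran from 0.92 to 1.44 and so included 1, the 2-fold limit. The call held in each of the 20 alternatives that measured this probe, with values between 1.08 and 1.25.

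ANXA3 had the largest fitted fall of the family, although JJ012 was near background for it and the fall of ANXA8 is known only as a bound. It is known from neutrophils, where the protein associates with granule membranes. Its single probe read 2363.6, 1623.9 and 2429.2 in C28, against 244.3, 72.9 and 105 in JJ012. Only JJ012 replicate 1 detected it, and the value on replicate 2 was at background. The normalized means were 10.85 ± 0.24 and 5.90 ± 1.59 (log2, SD, n = 3 each), a difference of -4.95 (SE 0.67, limma adjusted p = 0.000249). The JJ012 arrays differed among themselves by more than in any other annexin gene. On JJ012 replicates 1, 2 and 3, ANXA3 read 8.38%, 0.407% and 1.17% of its C28 mean. On replicate 1 that is within the 7.57% to 10.7% of the C28-bright reference probes, and on replicate 3 it is below their 1.5% to 3.63%. Without JJ012 replicate 1 no JJ012 array detected ANXA3, which was then at least 36.2-fold lower than in C28. That bound sets the C28 mean against the lowest signal of any detected probe on each JJ012 array.

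**Figure D2:**
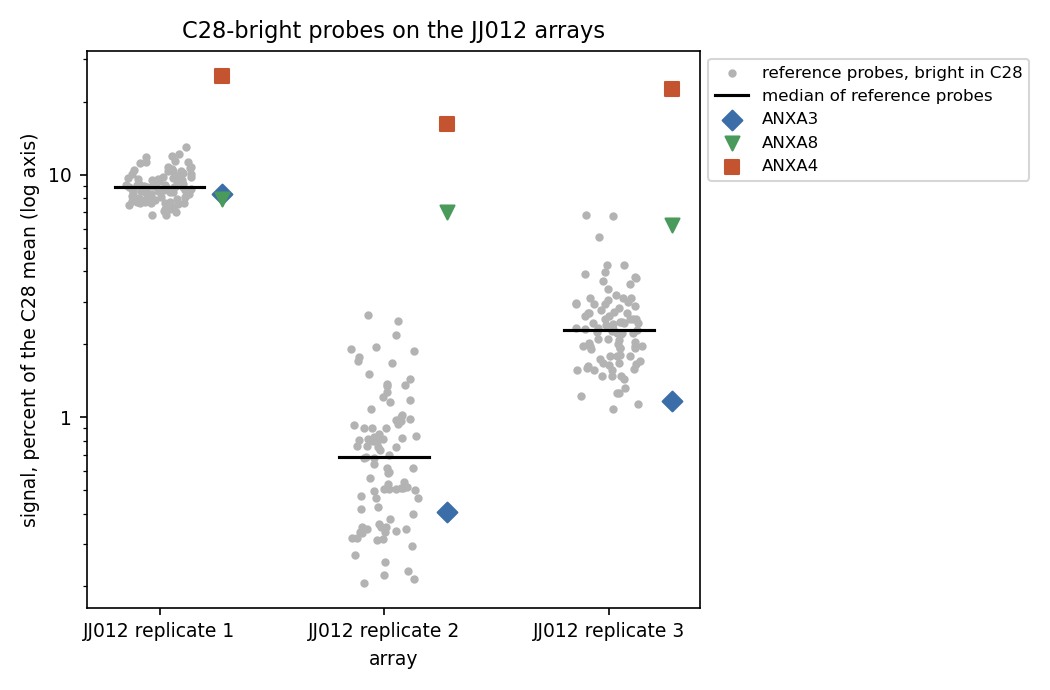
Background-corrected signal on each JJ012 array as a percent of the C28 mean, on a log axis, for 93 reference probes with high C28 signal and none detected on JJ012 replicate 2 (grey points, black line at the median) and for ANXA3, ANXA8 and ANXA4. ANXA3 lies among the reference probes on replicate 1, whereas ANXA4 reads 16.3% to 25.6% on all 3 arrays.

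ANXA8 encodes an annexin first described as a blood anticoagulant and later found high in acute promyelocytic leukaemia. Of its 5 probes only 1 was measured, which read 237.1, 191.6 and 221.2 in C28 and 77.2, 75.7 and 79 in JJ012. All C28 arrays and no JJ012 array detected it, so the size of the fall has only a bound. The normalized means were 7.07 ± 0.09 and 4.70 ± 0.09 (log2, SD, n = 3 each), and the gene was at least 2.61-fold lower in JJ012 (limma adjusted p = 7.18e-07). That bound holds for the background correction used here. The log2 difference was -1.14 with no background correction and -1.29 with the authors' normalized values. The other 4 probes of ANXA8 were near background in both lines, at 75.3 to 110.1 in C28 and 66.8 to 105.1 in JJ012, and 1 of them was detected on a single C28 array. ANXA8L1, a near-identical copy that probes may not separate from ANXA8, was at least 2.02-fold lower (limma adjusted p = 8.59e-05). It read 201.9, 159.6 and 182.4 in C28 and 103.5, 86.3 and 105 in JJ012, with no JJ012 array above detection, and was not called without background correction, at -0.62. The signals of the ANXA8 and ANXA8L1 probes may therefore come from either gene.

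ANXA4 is an annexin of epithelial cells that forms sheets on membranes and lowers their permeability. Its single probe read 555.8, 531.1 and 505.5 in C28 and 186.8, 145.5 and 183.1 in JJ012. Every JJ012 array detected it, and every one was below all C28 arrays. The normalized means were 8.70 ± 0.12 and 6.96 ± 0.23 (log2, SD, n = 3 each), a difference of -1.74 (SE 0.14, limma adjusted p = 1.19e-05). ANXA4 read 25.6%, 16.3% and 22.6% of its C28 mean on JJ012 replicates 1, 2 and 3, above the 90th percentile of the reference probes on each array, at 10.7%, 1.49% and 3.63%. With the C28 share subtracted from replicates 1 and 3 the difference was -1.89.

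Of the chondrocyte markers, MATN3, which no JJ012 array detected, was at least 3.23-fold lower in JJ012 (limma adjusted p = 5.92e-06). SOX9 read -0.53 and was not called (limma adjusted p = 0.0112). Of those not measured, the COL2A1 probe detected on 1 array read 118, 109.7 and 108.1 in C28 and 73.5, 76.5 and 81.7 in JJ012. The COL11A1 probe detected on 2 arrays went the other way, at 73.2, 72.7 and 66.8 in C28 and 100.4, 117 and 114.9 in JJ012. Markers of other cell types differed between the lines in both directions. Of 5 epithelial markers 3 were measured, with EPCAM at -1.98 and KRT8 at -3.45 lower in JJ012 and KRT18 at -0.23 (adjusted p = 0.223), while CDH1 and KRT19 were not detected on any array. The summed background-corrected signal of the epithelial list was 1230 to 1633 on the C28 arrays and 122.7 to 259.5 on the JJ012 arrays. All 6 fibroblast markers were measured, and 5 were lower in JJ012, beside 17.6% lower among all genes. They were COL1A1 at -1.45, COL1A2 at -2.12, COL3A1 at -3.78, PDGFRB at -3.002 and THY1, which no JJ012 array detected, at least 2.97-fold. The probes read for COL3A1 and EPCAM were detected in JJ012 on replicate 1 alone. Without that array the differences were -4.27 for COL3A1 and -2.21 for EPCAM. VIM, at 0.24, was not called and carried most of the summed signal of 23660 to 30720 in C28 and 24250 to 28680 in JJ012, which overlapped. Without VIM the sum was 4212 to 5537 against 843.4 to 1177. The endothelial marker PECAM1, not detected in C28, was at least 1.66-fold higher (adjusted p = 0.000162) and not called without background correction, at 0.71, while CDH5 and VWF were not detected on any array. The blood cell marker CD14 was lower by a log2 difference of -2.72 (adjusted p = 1.4e-05), while PTPRC, CD74 and CD3E were not detected on any array. The part of cell type in the annexin differences was not tested, and in bulk RNA fewer cells of a type and less RNA per cell cannot be told apart.

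Stretches upstream of the start are shown for the called annexins that the RefSeq promoter table lists (build GRCh38.p14), because they let the higher and the lower genes be set side by side. Each is the 250 bases before the start of the gene, 5′ to 3′ on the plus strand, at chr9:73151615-73151864 for ANXA1, chr4:168092287-168092536 for ANXA10, chr4:78551520-78551769 for ANXA3 and chr2:69643558-69643807 for ANXA4. ANXA4 has 2 listed starts, of which the first was used. Capitals mark matches, on either strand and overlaps included, to TATAAA, to CCAAT, to GGGCGG and to TGANTCA.
ANXA1: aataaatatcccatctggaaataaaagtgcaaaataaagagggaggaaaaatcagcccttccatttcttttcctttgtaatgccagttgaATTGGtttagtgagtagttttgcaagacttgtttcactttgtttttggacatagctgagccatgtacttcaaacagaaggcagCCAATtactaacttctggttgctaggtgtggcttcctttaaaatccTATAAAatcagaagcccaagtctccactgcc
ANXA10: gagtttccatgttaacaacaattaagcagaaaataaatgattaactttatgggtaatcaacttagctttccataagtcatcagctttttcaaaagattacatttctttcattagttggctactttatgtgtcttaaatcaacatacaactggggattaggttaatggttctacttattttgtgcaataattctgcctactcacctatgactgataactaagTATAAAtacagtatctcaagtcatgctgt
ANXA3: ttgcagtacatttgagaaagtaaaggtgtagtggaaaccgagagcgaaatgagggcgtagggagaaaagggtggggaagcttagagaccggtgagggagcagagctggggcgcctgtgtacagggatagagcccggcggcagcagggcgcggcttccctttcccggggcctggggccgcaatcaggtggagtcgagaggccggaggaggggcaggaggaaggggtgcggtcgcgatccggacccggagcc
ANXA4: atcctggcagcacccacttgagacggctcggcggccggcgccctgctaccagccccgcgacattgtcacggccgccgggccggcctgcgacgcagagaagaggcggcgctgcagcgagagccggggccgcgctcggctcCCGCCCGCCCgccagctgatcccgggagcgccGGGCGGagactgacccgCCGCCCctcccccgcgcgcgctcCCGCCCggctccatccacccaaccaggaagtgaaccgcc
The stretches of the higher genes ANXA1 and ANXA10 held no CpG, and each held a TATAAA, beginning 31 and 29 bases before the start. Those of the lower genes ANXA3 and ANXA4 held 18 and 36 CpG, no TATAAA, and in ANXA4 5 matches to GGGCGG, of which a pair overlaps. Across all 35116 listed starts, the median was 11 CpG in the same length, and 10.7% held TATAAA, 32% CCAAT, 42.6% GGGCGG and 6.57% TGANTCA. Of the genes that were not called, ANXA2 also held a TATAAA 31 bases before its start, beside 28 CpG, and ANXA11 one at 61 bases, beside 9 CpG. ANXA5, ANXA6 and ANXA7, also not called, held 31, 19 and 20 CpG and no TATAAA, with 1, 1 and 3 matches to GGGCGG. High CpG without TATAAA was therefore not particular to the lower genes. A match is a description of the letters and not a site in use. ANXA2, the member with a TGANTCA, had it 127 bases before the start. The table listed 9 of the 10 genes and not ANXA8, which was called lower.

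ANXA2 encodes the annexin that pairs with S100A10 and serves as a surface receptor for plasminogen and its activator. Its 3 probes were detected on all arrays and did not move alike. The brightest, ILMN_2409167, read 29324.7, 21982.7 and 26454.2 in C28 and 19844.9, 21348.6 and 24159.2 in JJ012, a normalized difference of -0.14 (SE 0.10, adjusted p = 0.232). Its 95% interval, -0.37 to 0.09, leaves room for a small change in either direction. The intensities of this brightest probe overlapped between the lines, and its normalized values nearly met. The probe ILMN_1711899 read 4671.4, 3402.1 and 4446.2 against 6069.4, 5998.3 and 7271.5, a difference of 0.86 (SE 0.11, adjusted p = 0.000159). The dimmest, ILMN_1755937, read 759.4, 540.8 and 644 against 660.2, 878 and 755.9, a difference of 0.58 (SE 0.15, adjusted p = 0.00776). The intensities of this probe overlapped between the lines. None reached 2-fold, but the dimmer probes were higher in JJ012 and the brightest was not. The gap between the brightest probe and ILMN_1711899 was 2.73 ± 0.12 on the C28 arrays and 1.73 ± 0.09 on the JJ012 arrays (log2, SD, n = 3 each), with no overlap. An exact two-sided permutation test over arrays gave p = 0.1, the smallest value that 3 arrays against 3 allow, and 0.15 after adjustment over the 6 probe pairs compared.

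The brightest ANXA2 probe lay at 72.0% to 89.8% of the highest intensity on each array, and whether the scanner range compressed its difference was not tested. Probes named for the processed pseudogenes of ANXA2, which were chosen after their values were seen, may also read ANXA2 transcripts. The ANXA2P2 probe differed by -0.13 (adjusted p = 0.293) and the brighter ANXA2P1 probe by -0.33 (adjusted p = 0.0132). The other ANXA2P1 probe, at 0.04, and that of ANXA2P3, at 0.01, had adjusted p-values of 0.791 and 0.958. ANXA2R, named for a receptor of ANXA2 and also chosen after its values were seen, read 788.5, 601.5 and 644.7 in C28 and 137.8, 80.3 and 124.8 in JJ012. It was lower by a log2 difference of -3.33 (SE 0.35, adjusted p = 5.87e-05), with JJ012 replicate 2 below detection.

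**Figure D3:**
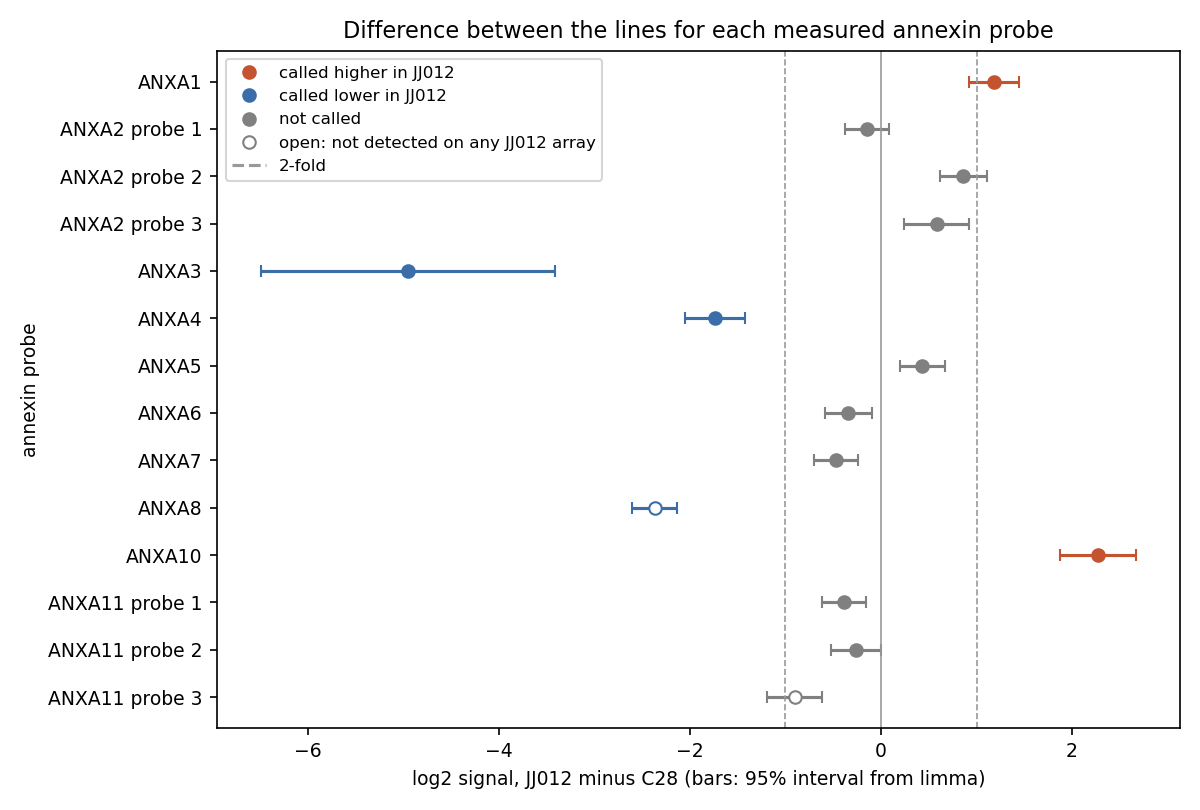
Log2 signal of JJ012 minus C28 for each of the 14 measured annexin probes, with 95% intervals from limma, dashed lines at 2-fold and open points where no JJ012 array detected the probe. The ANXA2 probes spread from -0.14 to 0.86, and the ANXA11 probes all lie below 0.

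ANXA5, ANXA6, ANXA7 and ANXA11 had small differences whose intervals stayed within 2-fold for the probe that represents the gene. ANXA5 is the annexin used to stain phosphatidylserine on dying cells, and with ANXA6 it is known from matrix vesicles of mineralizing cartilage. ANXA5 read 6905.6, 5838.1 and 5953.6 in C28 and 7271.9, 6657.1 and 8604.6 in JJ012. These intensities overlapped between the lines, and the normalized values did not, with a difference of 0.43 (SE 0.10, 95% interval 0.20 to 0.67, adjusted p = 0.00487). ANXA6, which has a duplicated core and acts on endosomes and cholesterol, read 278.3, 221.9 and 237.4 against 180.3, 164.7 and 173.5. Its difference was -0.34 (95% interval -0.59 to -0.09, adjusted p = 0.0204), and the highest adjusted p when 1 array was left out was 0.0747.

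ANXA7, known as synexin for its membrane fusion activity, read 4003.7, 3394.1 and 3428.6 in C28 and 2290.7, 2085 and 2145.2 in JJ012. Each JJ012 array was below each C28 array, with a normalized difference of -0.47 (95% interval -0.70 to -0.24, adjusted p = 0.00307). Its other probe was at background in both lines. ANXA11 has a long tail that binds S100A6 and PDCD6, and it is known for linking RNA granules to lysosomes. Its brightest probe read 830.6, 647.5 and 724.8 against 452.7, 481.4 and 473, a difference of -0.39 (95% interval -0.62 to -0.15, adjusted p = 0.00888). The second ANXA11 probe differed by -0.26 (adjusted p = 0.0705), and the third, not detected on any JJ012 array, was at least 1.07-fold lower (adjusted p = 0.000286). All 3 ANXA11 probes were lower in JJ012, and none was called.

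Among 10 EF-hand proteins that bind annexins, 8 were measured, 2 were higher in JJ012 and none was lower. S100A4, a regulator of cell movement that can bind ANXA2, rose from 8.89 ± 0.12 to 13.27 ± 0.11 (log2, SD, n = 3 each), a difference of 4.38 (SE 0.11, adjusted p = 6.04e-08). SRI, the sorcin that binds ANXA7, rose by 1.22 (SE 0.10, adjusted p = 1.59e-05), though its other probes read 0.46 and 0.51 and the call was lost without background correction, at 0.98. S100A10, the partner of ANXA2, read -0.55 (adjusted p = 0.000823), S100A11, the partner of ANXA1, -0.36 (adjusted p = 0.0108) and S100A6, a partner of ANXA11, 0.52 (adjusted p = 0.00252). These 3 partners stayed within 2-fold, as did PDCD6 at -0.08. The share called in this list, 25%, compares with 31.2% of all genes, and its median difference was 0.06.

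Genes around ANXA1 action were thinly measured, at 4 of 8, with 2 higher and none lower, beside 13.7% higher and 17.6% lower among all genes. FPR1, a formyl peptide receptor, rose by 1.07 (SE 0.16, adjusted p = 0.000397) from a level that 1 of 3 C28 arrays detected. Its intensities were 119.4, 91.7 and 118.2 in C28 and 138.7, 128.7 and 149.7 in JJ012, close to background. PTGS2, the inducible cyclooxygenase, rose by 1.00 (SE 0.12, adjusted p = 0.000123) and lost its call without JJ012 replicate 1, at 0.95. Without background correction neither was called, with FPR1 at 0.47 and PTGS2 at 0.49. The glucocorticoid receptor gene NR3C1 read -0.08 (adjusted p = 0.572), and TSC22D3, a glucocorticoid-induced gene, 0.25 (adjusted p = 0.214). FPR2, the receptor best known for ANXA1, FPR3, PLA2G4A and TRPM7 were not measured. Of the genes for plasmin formation at the cell surface, 6 were measured, and 2 were lower with none higher, which is 33.3% called beside 31.2% of all genes. PLAU, the urokinase gene, read 5444.5, 4893.2 and 4589.2 in C28 and 482.4, 139.2 and 293.1 in JJ012, a normalized difference of -4.34 (SE 0.48, adjusted p = 8.14e-05). JJ012 replicate 1 was the highest of the JJ012 arrays, as for ANXA3, and without it the difference was -4.88. It was -5.53 with JJ012 replicate 2 alone and -6.18 with the C28 share subtracted. PLAT, the tissue activator that binds ANXA2, fell by 1.62 on the log2 scale (SE 0.18, adjusted p = 9.15e-05). PLAUR at -0.38, PLGRKT at 0.56, SERPINE2 at 0.76 and AHNAK at 0.88 were not called, the other probes of AHNAK read -0.65 and -0.04, and PLG was not measured.

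Of 15 membrane repair genes 13 were measured, 3 lower and 1 higher, which is 30.8% called beside 31.2% of all genes. DYSF, the dysferlin of muscle membrane repair, was at least 2.50-fold lower with no JJ012 array detecting it (adjusted p = 3.18e-06), and it was not called without background correction, at -0.97. VPS4B, an ATPase that recycles ESCRT complexes, fell by 1.16 on the log2 scale (SE 0.12, adjusted p = 4.60e-05), and CAPNS1, the small calpain subunit, by 1.06 (SE 0.09, adjusted p = 2.04e-05), with its other probe at -0.94. CAV1, the main caveolin, rose by 1.93 (SE 0.10, adjusted p = 1.49e-06). MYOF, the myoferlin that is a relative of dysferlin, read 0.03 (adjusted p = 0.866). CHMP2A, an ESCRT subunit, was not called on its brightest probe, at 0.40, while its other probes disagreed, at 1.62 and -0.42. Of 7 measured genes that move phosphatidylserine between membrane faces, PLSCR4 rose by 2.45 (SE 0.13, adjusted p = 2.10e-06) from a level that 2 of 3 C28 arrays detected, the 1 call of the list and 14.3% beside 31.2% of all genes. The scramblase gene ANO6 read -0.99 (adjusted p = 0.000611) and passed 2-fold without JJ012 replicate 1, at -1.13. Also not called were XKR8 at 0.77 (adjusted p = 0.000206), PLSCR1 at 0.94 (adjusted p = 0.000423) and ATP8B1 at 0.81 (adjusted p = 0.000412). PLSCR3 read -0.32 (adjusted p = 0.0225) and TMEM30A -0.06 (adjusted p = 0.735). The median difference of the list was 0.77, beside -0.04 over all genes. From JJ012 replicate 2 alone, PLSCR1 read 1.15 and ANO6 -1.32.

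Of 9 genes of matrix vesicle mineralization 5 were measured, 3 higher, 1 lower and 1 not called, which is 80% called beside 31.2% of all genes. The median difference was 1.66 beside -0.04 over all genes. Nothing particular to the list is read from these 5 genes. Of them, SPP1 passed the filter through JJ012 alone and ANKH through C28 alone. SPP1, which encodes osteopontin, read 83.4, 78.2 and 107.7 in C28 and 512.5, 259 and 467 in JJ012. No C28 array detected it, and it was at least 8.40-fold higher (adjusted p = 1.56e-05) by this probe and at least 4.96-fold by its other probe. The phosphate transporter genes SLC20A1 and SLC20A2 rose by 1.66 (SE 0.10, adjusted p = 2.79e-06) and 1.74 (SE 0.16, adjusted p = 2.56e-05). ANKH, which takes part in the release of pyrophosphate, an inhibitor of mineralization, was at least 1.37-fold lower (adjusted p = 1.16e-05) and not detected in JJ012, and it was not called without background correction, at -0.53. ENPP1, which makes pyrophosphate, read 1.00 just under the 2-fold limit, and 1.08 without JJ012 replicate 1, when it was called. ALPL, IBSP, PHOSPHO1 and SMPD3 were not measured, among them the phosphatase that defines matrix vesicles. Near background, the normalized values of ALPL, PHOSPHO1 and SMPD3 were lower in JJ012 without overlap, and those of IBSP overlapped.

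**Figure D4:**
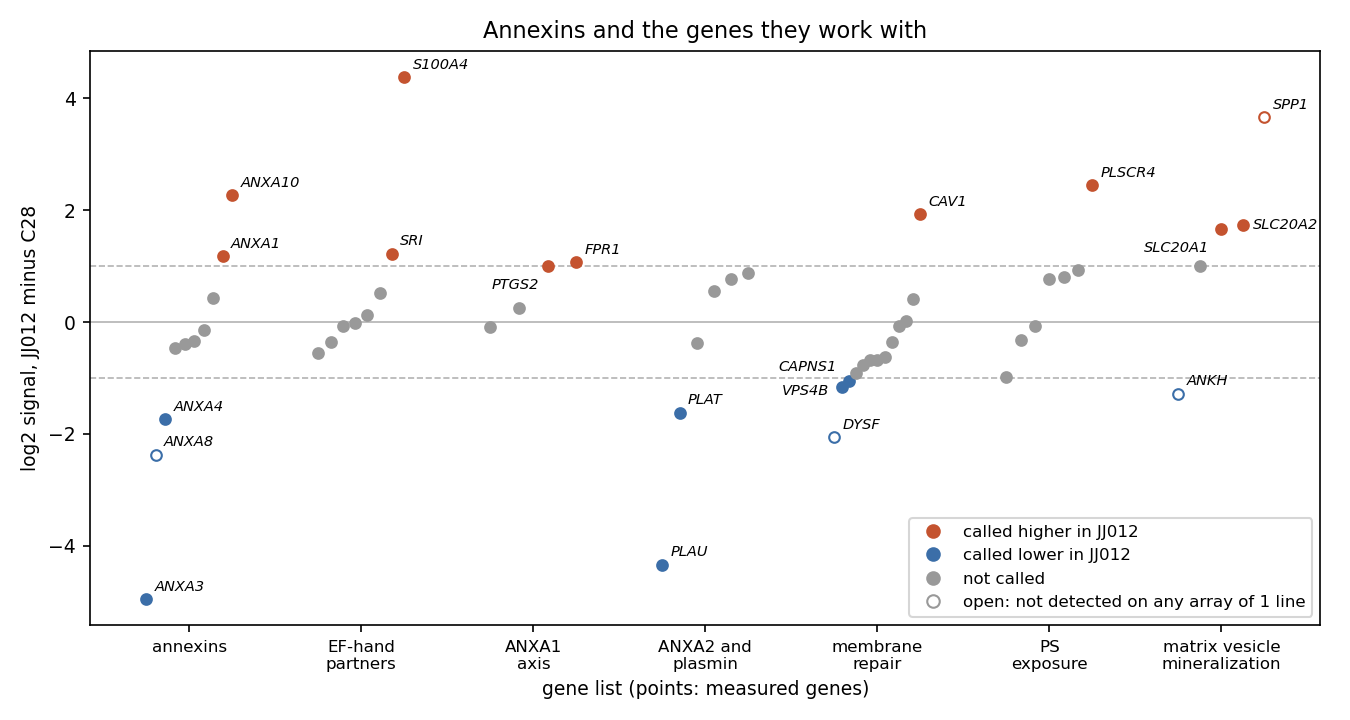
Log2 signal of JJ012 minus C28 for the measured annexin genes and for the measured genes of 6 lists of partners and processes, with called genes named, dashed lines at 2-fold and open points where no array of 1 line detected the gene (PS, phosphatidylserine). S100A4 at 4.38 and PLAU at -4.34 are the largest differences outside the annexins.

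Among 9388 other genes detected on all 6 arrays, those whose 6 values lay closest to ANXA1, each gene centred on its own mean, were SPESP1, CPEB2 and GNL2, with root mean square differences of 0.06, 0.06 and 0.07 on the log2 scale. For ANXA4, the largest fall among annexins detected on all arrays, they were ZCCHC3, PRNP and SAT1, at 0.06, 0.07 and 0.07. With 2 lines and 3 arrays of each, such likeness is mostly the size of 1 difference, which ran from 1.13 to 1.16 for the first group and from -1.78 to -1.68 for the second. Outside the 10 genes, ANXA9 and ANXA13 were not measured. The ANXA9 probe read 106, 86.7 and 92.5 in C28 and 104.3, 107 and 116.5 in JJ012, above detection on 2 JJ012 arrays, and no array detected a probe of ANXA13.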

How the data were processed

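The authors deposited 1 table with a mean intensity per probe and array, linear, with neither background subtracted nor arrays scaled, and, per the file headers, a detection value, a fraction read here as 1 minus the detection p because bright probes are at 1. A second deposited table holds log2 values that the authors normalized, centred per probe on the median of the 6 arrays. Its columns had medians of -0.003 to 0.004, and its method of normalization is not stated in the labels or headers. It entered as an alternative.

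Background correction and quantile normalization used neqc (limma 3.58.1, R 4.3.3; offset 16), whose negative controls were estimated from the detection column. The lines were compared with limma's lmFit and eBayes, two-sided, over 19384 measured probes, with Benjamini-Hochberg adjustment over all of them. The fit and the calls were tested on simulated data. Background correction, normalization, the detection filter and the bounds were not tested in this way. A gene was read from its brightest measured probe. Where no array of a line detected a probe, only a bound is given. The bound holds for the background correction used here, and other background handling can give a smaller difference. On each array of the dimmer line, the lowest detected signal stood in for the probe's own value unless the latter was higher, and the mean of these was set against the brighter line's mean. Gene names came from the platform annotation, updated through Entrez identifiers to the RefSeq table of GRCh38.p14, and all 19 annexin symbols stayed the same. The annotation listed 1 symbol for 30113 probes, several for 8 and none for 17110.

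The members and lists were chosen with earlier results of these data known. Every annexin probe is reported, and from each partner, process and marker list the called genes are named, with defining genes that were not measured. Other list genes were named after their values were seen. Patterns most like an annexin were ranked by root mean square difference. No batch entered the comparison, and scan batches were not analysed here. With 3 arrays a line, that number limits precision. The deviations of arrays with the same replicate number correlated at -0.04, -0.07 and 0.05 across probes. Arrays with different numbers had -0.07 to 0.09. With 3 arrays a line, these values cannot show whether a shared number marks a shared culture or day.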

Additional observations from a re-analysis of the deposited data

How the results depend on the processing

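For the 14 annexin probes, 20 alternatives gave 272 values, and each kept the direction of the value reported. They covered background correction, normalization, filters, probe choice, array weights, the replicate number, the arrays used and the threshold. In 264 of them the call did not change either. The other 8 gained a call, 7 because the 2-fold minimum was dropped and 1, the third ANXA11 probe at -1.02, with array weights. The values of ANXA3 ran from -6.43 with the C28 share subtracted to -3.71 without background correction, those of ANXA8 from -2.56 to -1.14, those of ANXA10 from 1.29 to 2.48 and those of ANXA4 from -1.98 to -1.28. With the mean of a gene's probes, the same 2 annexin genes were higher and the same 3 lower.

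With 1 array left out in turn, 2 to 2 annexin genes were higher, 3 to 3 lower and 5 to 5 annexin probes called. Of the list genes, 15 to 18 were called, against 16 with all arrays. List genes here are those of the partner and process lists together with ANXA8L1. Keeping only probes detected on all 6 arrays removes ANXA3, ANXA8 and ANXA10 by construction. It left 1 annexin gene higher, 1 lower, 2 annexin probes called and 10 list genes called. Of the 9389 genes in that set, 21.9% were called, against 31.2% of all measured genes in the main fit. Without background correction 10 list genes were called. With no minimum fold, 3 annexin genes were higher and 6 lower, and 36 list genes were called, beside 71.9% of all genes. At that threshold 12 annexin probes were called, beside 70.2% of all measured probes. With the replicate number as a block, 2 annexin genes were higher, 3 lower, 5 annexin probes called and 16 list genes, so the block changed no call. Of all genes, 31.2% were called, 19.6% without background correction and 21.4% with the authors' values. The share of calls that were lower in JJ012 was 56.3%, and 67.0% with median scaling, which moved the median of all genes from -0.04 to -0.23. Probes near background, such as those of ANXA8 and ANXA10, have the least certain sizes.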
